A study of Mus musculus with 9 samples.

Results

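The translation initiation factor genes of mouse cortex were followed through sham surgery, experimental stroke with a control oligonucleotide, and the same stroke with knockdown of an enhancer RNA. Members were all genes whose symbol starts with Eif followed by a digit, leaving out Eif2ak2 and 6 pseudogene symbols ending in -ps, which gave 54 of the 52550 gene IDs in the deposited transcript tables. Of these, 52 were expressed highly enough to be tested, meaning a TPM (the length-corrected share of all transcripts that StringTie gives) of 1 or more in 3 or more of the 9 libraries. The untested members were Eif4e1b, which was listed at 0 in all libraries but knockdown 2, and Eif4ebp3.

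RNA was extracted from cerebral cortex, the mice being male C57BL/6N aged 9-12 weeks, with 3 libraries per group. The control oligo mice received a negative control oligo, and the knockdown mice a locked nucleic acid antisense oligo against eRNA_06347, an RNA made from an enhancer. Both oligos were given through the lateral ventricles, before the middle cerebral artery was blocked with a filament (MCAO) for 1 h and reperfused for 6 h, and the infarcted cortex on the occluded side was taken. Sham mice had the neck incision without the filament, no oligo is recorded for them, and their libraries were taken over from data that the laboratory had generated before. The knockdown libraries carry the numbers 2 to 4. The labels do not say whether animals were pooled, so p-values measure the spread between these libraries only. The targeted eRNA_06347 has no row under that name, and its level was not analysed here.

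Initiation factors bring the small ribosomal subunit, the initiator tRNA and an mRNA together. eIF2 carries the initiator tRNA, eIF2B recharges eIF2 with GTP, eIF3 and eIF1 hold the ribosome ready to scan, the eIF4 proteins bind and unwind the capped mRNA, and eIF5 and eIF5B let the large subunit join. In the brain after ischaemia, kinases that phosphorylate the alpha subunit of eIF2 and proteins that sequester the cap-binding protein eIF4E are the best known brakes on this process.

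The sham libraries differed from the others in more than surgery. Their most frequent aligned length in short single-exon transcripts was 51 bases against 282 in all 6 MCAO libraries. Small structural RNA held 62.0 to 66.4% of their TPM against 0.705 to 0.862%, and mitochondrial genes held 0.277 to 0.577% against 22.6 to 28.9%. Aligned bases came to 2.70 to 2.87 Gb in sham and 4.40 to 4.92 Gb in the MCAO libraries. Without correction the median gene was higher in control oligo than in sham by 0.56 and in knockdown by 0.61 on the log2 scale. All levels below are therefore TPM divided by a median-ratio factor for each library (scaled TPM), after which those medians were 0.01. Stroke, oligo, read length, RNA selection and data set cannot be told apart in any comparison with sham. In bulk tissue, fewer cells of a type and less RNA per cell cannot be told apart either.

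Members were more often called higher than lower in the stroke cortex against sham. Many were not called, 24 of 52 in control oligo and 21 in knockdown. In control oligo against sham, 25 of the 52 tested members rose and 3 fell (limma on log2(scaled TPM + 1), Benjamini-Hochberg adjusted p under 0.05 over all 17080 genes tested), while 26.1% of all genes tested rose and 29.2% fell. In knockdown against sham, 29 rose and 2 fell, against 22.7% and 27.1% of all genes. The median member differed from sham by 0.29 in control oligo and by 0.43 in knockdown, where the median of all genes was 0.01 in each. These comparisons share the sham libraries, so their values are given side by side. Summed over all 54 members, scaled TPM was 2769 to 2982 in sham, 3771 to 3974 in control oligo and 3787 to 4696 in knockdown. The sum was thus higher in each MCAO library than in any sham library.

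The split between rises and falls depended on the scaling. On unscaled TPM, 43 members were called higher and 1 lower in control oligo, where 52.6% and 12.8% of all genes were, and 47 higher and 1 lower in knockdown, where 52.7% and 12.5% were. With TPM computed anew over the protein-coding genes of the nucleus alone, the counts were 20 higher and 3 lower in control oligo (21.5% and 29.2% of the genes tested) and 22 higher and 4 lower in knockdown (17.8% and 28.0%). Unscaled TPM added 18 calls in each comparison with sham among members not called on scaled TPM, all of them higher. In control oligo, 20 members were higher under each of 7 ways of computing the levels, as were 22 in knockdown. The share of all genes called under each of the 7 was not computed, so these counts have no background. Eif5a2 was the only member lower under each of the 7 in either comparison. The calls that were lost in at least 1 of the 7 ways were Eif1b, Eif2ak1, Eif3j1 and Eif4e2 in both comparisons, Eif3l in control oligo, and Eif1a, Eif3i and Eif5 in knockdown among the rises. The lost calls among the falls were Eif1ax in both and Eif4e3 in control oligo.

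**Figure D1:**
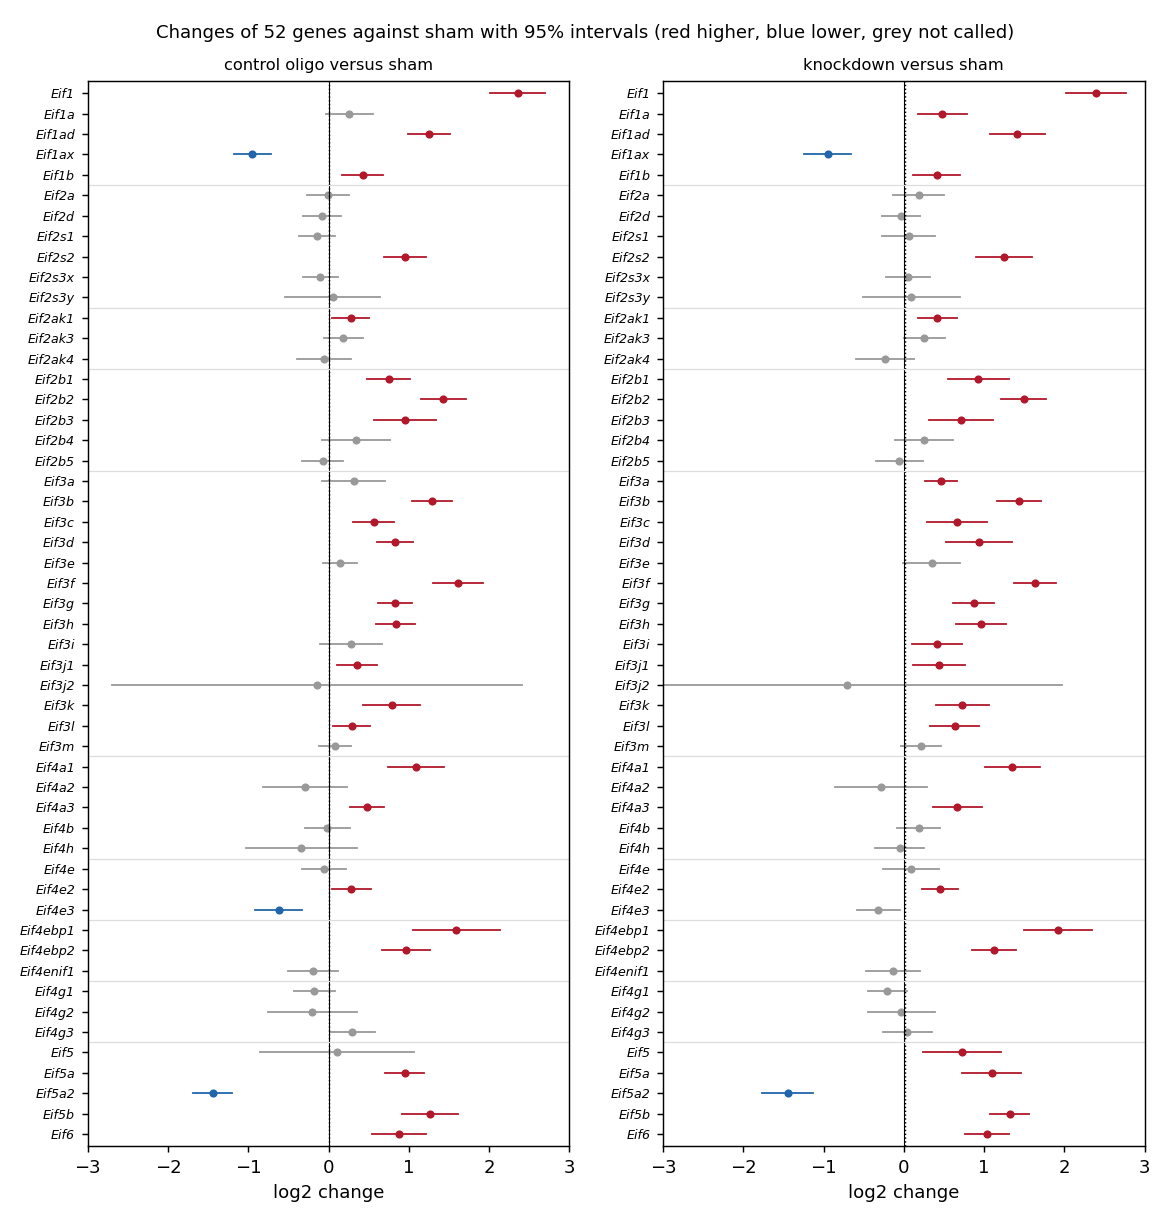
Log2 change against sham (horizontal axis) of the 52 tested genes in control oligo (left) and knockdown (right), with 95% intervals, in the order of the factors and separated by grey lines. Red marks genes called higher, blue lower and grey not called, the dotted line is the median of all genes, and Eif1 and Eif5a2 lie at the extremes.

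Sequence just upstream of the transcription start is shown for 4 members with large changes, Eif1, Eif3f and Eif4a1 among those that rose and Eif5a2, which fell. The sequences are from RefSeq (GRCm38.p6), 5′ to 3′ on the strand of the gene, with each CACGTG in capitals. CACGTG is the E-box, the motif that Myc and related factors bind, and it reads the same on both strands. The windows are chr11:100319699-100319884 on the plus strand for Eif1, chr7:108934165-108934414 on the plus strand for Eif3f, chr11:69672424-69672673 on the minus strand for Eif4a1 and chr3:28781027-28781276 on the plus strand for Eif5a2.
Eif1: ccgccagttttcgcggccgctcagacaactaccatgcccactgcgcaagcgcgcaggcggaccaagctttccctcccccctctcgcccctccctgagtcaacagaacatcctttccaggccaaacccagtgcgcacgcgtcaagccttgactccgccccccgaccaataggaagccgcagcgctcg
Eif3f: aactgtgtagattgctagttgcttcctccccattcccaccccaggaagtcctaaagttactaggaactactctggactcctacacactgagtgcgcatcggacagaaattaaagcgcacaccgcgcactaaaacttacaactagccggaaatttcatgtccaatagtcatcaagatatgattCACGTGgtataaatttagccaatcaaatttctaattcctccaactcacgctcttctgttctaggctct
Eif4a1: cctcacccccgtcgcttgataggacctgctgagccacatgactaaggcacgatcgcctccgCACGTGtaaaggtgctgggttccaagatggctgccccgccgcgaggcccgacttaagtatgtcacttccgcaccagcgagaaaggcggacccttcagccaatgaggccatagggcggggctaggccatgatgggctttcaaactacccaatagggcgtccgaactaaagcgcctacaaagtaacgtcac
Eif5a2: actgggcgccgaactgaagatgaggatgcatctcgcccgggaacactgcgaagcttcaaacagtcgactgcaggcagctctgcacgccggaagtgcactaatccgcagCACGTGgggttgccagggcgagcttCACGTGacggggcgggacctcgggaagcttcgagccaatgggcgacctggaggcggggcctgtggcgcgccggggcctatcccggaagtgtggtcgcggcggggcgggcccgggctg
The Eif1 window is shorter because the files hold a transcript that starts within it. The motif stood in the windows of both Eif4a1, which rose, and Eif5a2, which fell, with 2 copies in the latter. In windows from 250 bases before to 50 bases after the start, 42 of the 54 members were found, and CACGTG was in 10 of them (Eif1b, Eif3a, Eif3f, Eif3k, Eif4a1, Eif4e, Eif4g1, Eif4h, Eif5a and Eif5a2), or 23.8%, against 11.5% of the 11204 tested genes with a window. By the control oligo calls, it was in 5 of the 21 members with a window that rose, in 1 of the 2 that fell and in 4 of the 19 that were not called. TGATGNAA, the core of the element that ATF4 and C/EBP factors bind, was searched on both strands and was in 1 of the 42 members, Eif2s3x, against 2.77% of the tested genes. Eif2s3x did not hold CACGTG, so the 2 motifs overlapped in no member, and a match describes letters only.

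The start-codon factors eIF1 and eIF1A held both the largest rise and one of the falls. Eif1 (chr11:100319885-100322096) encodes the factor that guards start-codon choice. Its scaled TPM was 56.2, 69.1 and 69.2 in sham 1 to 3, 365.5, 280.0 and 363.4 in control oligo 1 to 3, and 343.2, 407.7 and 290.1 in knockdown 2 to 4. All MCAO libraries lay above all sham libraries, with log2 changes of 2.35 ± 0.14 (SE; limma adjusted p = 2.21e-05) in control oligo and 2.40 ± 0.16 (4.73e-05) in knockdown. Its close relative Eif1b stood at 95 ± 5.4 (SD, n = 3) in sham, against 128 ± 13 in control oligo and 126 ± 15 in knockdown, with log2 changes of 0.42 (adjusted p = 0.0126 by limma) and 0.41 (0.0291). Eif1ad, which encodes a protein with an eIF1A-like domain, had 12.0, 13.7 and 12.6 in sham, 30.3, 34.8 and 30.4 in control oligo, and 37.9, 40.5 and 29.5 in knockdown. It rose by 1.25 ± 0.11 and 1.41 ± 0.14 (limma adjusted p = 0.000106 and 0.000276).

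Eif1ax, the X-linked gene for eIF1A, went the other way. It had 85.6, 91.2 and 88.7 in sham, 42.3, 44.9 and 49.2 in control oligo, and 50.6, 48.0 and 38.6 in knockdown. It fell by 0.95 on the log2 scale in each comparison (limma adjusted p = 0.000195 and 0.000848), but on unscaled TPM the changes were −0.29 and −0.23, which did not pass (0.0777 and 0.229). The autosomal copy Eif1a had 26.8, 29.9 and 26.7 in sham, 38.9, 31.5 and 30.1 in control oligo, and 37.2, 34.9 and 45.8 in knockdown, and passed the test only in the latter (log2 change 0.48, limma adjusted p = 0.0197). Reads from near-identical stretches of these 2 genes may have been split by the counting, so their separate levels are uncertain.

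Within eIF2, the beta subunit gene Eif2s2 was the member that passed the test. It had 32.5, 35.5 and 35.3 in sham, 65.1, 76.6 and 61.6 in control oligo, and 80.6, 101.5 and 70.1 in knockdown. Every MCAO library lay above every sham library, and the log2 changes were 0.95 ± 0.11 and 1.25 ± 0.15 (limma adjusted p = 0.000376 and 0.000537). The other 5 genes of the group, Eif2s1 for the alpha subunit, Eif2s3x and Eif2s3y for the gamma subunit, and the initiator-tRNA binding factors Eif2a and Eif2d, were not called in either comparison, with log2 changes from −0.14 to 0.18. On unscaled TPM, 4 of these 5 were called higher in control oligo (all but Eif2s3y) and all 5 in knockdown, and the change of Eif2a was 0.63 and 0.89 (limma adjusted p = 0.00598 and 0.00156). Eif2a had 32.3, 32.8 and 38.7 in sham, 33.2, 36.7 and 32.9 in control oligo, and 43.6, 41.3 and 33.8 in knockdown, so the groups overlapped. Eif2s3x and Eif2s3y are near copies on the X and Y chromosomes, and their reads may be split between them.

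Among the members, 3 genes encode kinases that phosphorylate the alpha subunit of eIF2, and 1 of these passed the test. Eif2ak2, a further gene for such a kinase, was left out by the rule for members. Eif2ak1, the haem-regulated kinase, had 24.5, 25.6 and 24.6 in sham, 32.7, 29.0 and 29.5 in control oligo, and 36.6, 33.4 and 31.1 in knockdown. Its log2 changes were 0.28 and 0.42 (limma adjusted p = 0.0454 and 0.0131). The first call was lost without sham 1, 2 or 3 or control oligo 1 (adjusted p 0.0963 to 0.132) and the second without sham 1 or 3 (0.0545 and 0.0520). Eif2ak3, which encodes PERK, the kinase of the endoplasmic reticulum, had 13.2, 12.3 and 13.1 in sham, 14.6, 15.0 and 14.6 in control oligo, and 14.6, 15.8 and 16.2 in knockdown. Its MCAO libraries lay above the sham libraries, with log2 changes of 0.18 and 0.25 that did not pass (limma adjusted p = 0.170 and 0.0868). On unscaled TPM they were 0.80 and 0.92 and passed (0.00212 and 0.000577). Eif2ak4, which encodes the amino acid sensor GCN2, had 8.86, 7.28 and 9.68 in sham, 7.61, 8.67 and 8.25 in control oligo, and 6.40, 7.23 and 7.85 in knockdown, with log2 changes of −0.06 and −0.23 that did not pass (0.743 and 0.241). On unscaled TPM these turned to 0.53 and 0.41 and passed (0.0240 and 0.0439).

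In eIF2B, the exchange factor on which those kinases act through eIF2, the genes for the alpha, beta and gamma subunits rose and the other 2 were not called. Eif2b2 (beta) had 18.1, 18.7 and 19.4 in sham, 54.8, 44.9 and 57.2 in control oligo, and 51.6, 63.0 and 49.9 in knockdown. It rose by 1.43 ± 0.12 and 1.49 ± 0.12 (limma adjusted p = 8.17e-05 and 0.000102). Eif2b3 (gamma) had 7.80, 11.6 and 10.5 in sham, 17.7, 21.7 and 21.0 in control oligo, and 16.3, 19.0 and 15.4 in knockdown, for log2 changes of 0.95 and 0.71 (0.00234 and 0.0115). Eif2b1 (alpha) rose by 0.75 and 0.93. Eif2b4 (delta) and Eif2b5, whose epsilon subunit is the catalytic one, had log2 changes from −0.07 to 0.34, and Eif2b5 stood at 40 ± 1.9 (SD, n = 3) in sham, against 38 ± 3.9 in control oligo and 39 ± 5.2 in knockdown.

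The eIF3 genes were the largest block of rises. Of 14, 9 rose in control oligo (Eif3b, Eif3c, Eif3d, Eif3f, Eif3g, Eif3h, Eif3j1, Eif3k and Eif3l) and none fell, and in knockdown 11 rose, with Eif3a and Eif3i in addition. The group medians were 0.46 and 0.65. Of the 8 subunits with a PCI or MPN domain, which form the core of the complex, 5 and 6 rose, and of the other 6 genes 4 and 5 did. Eif3f, one of the MPN subunits, led with 25.9, 30.9 and 28.1 in sham, 98.9, 75.1 and 92.6 in control oligo, and 88.7, 97.4 and 84.2 in knockdown. Its log2 changes were 1.61 ± 0.13 and 1.64 ± 0.11 (limma adjusted p = 7.44e-05 and 5.26e-05). Eif3b, the subunit that holds the g and i subunits, had 29.8, 32.8 and 31.2 in sham, 71.1, 86.4 and 77.1 in control oligo, and 87.02, 97.0 and 76.3 in knockdown, and rose by 1.29 ± 0.11 and 1.44 ± 0.12 (7.63e-05 and 0.00011).

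Other eIF3 members ranged down to no call. Eif3l had 45.6, 50.6 and 50.1 in sham, 55.1, 63.0 and 61.2 in control oligo, and 77.2, 87.5 and 65.3 in knockdown, for log2 changes of 0.29 and 0.63 (limma adjusted p = 0.0419 and 0.00609). The first of these was lost without sham 1, 2 or 3 or control oligo 2 or 3 (adjusted p 0.0651 to 0.148). The log2 changes of Eif3c, Eif3d, Eif3g, Eif3h and Eif3k lay between 0.56 and 0.84 in control oligo and between 0.66 and 0.96 in knockdown. Eif3e and Eif3m, also core subunits, were not called, at 0.14 and 0.08 in control oligo and 0.35 and 0.21 in knockdown. Eif3j2, a near copy of Eif3j1, was listed at 0 in 5 of the 9 libraries and reached 15.2 in sham 2. Its 95% intervals against sham were −2.70 to 2.41 and −3.38 to 1.97, and reads of the pair may be split.

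Among the cap-side factors, the helicase gene Eif4a1 and the RNA helicase of the exon junction complex, Eif4a3, rose. Eif4a1 had 86.3, 73.4 and 66.5 in sham, 154.0, 191.3 and 140.5 in control oligo, and 165.6, 202.8 and 213.2 in knockdown. The groups stood apart, with log2 changes of 1.09 ± 0.15 and 1.35 ± 0.15 (limma adjusted p = 0.000791 and 0.000371). Eif4a3 rose by 0.48 and 0.67. The related Eif4a2 had 218.5, 228.5 and 395.9 in sham against 204.8 to 229.4 in control oligo and 193.4 to 242.2 in knockdown, and was not called, sham 3 being far above the rest. Annotated snoRNA genes lie inside Eif4a1, Eif4a2, Eif4g1 and Eif4g2, and one of those inside Eif4a1 averaged 490 scaled TPM in sham against 0.155 in control oligo. Whether their reads reached the host genes' values was not tested.

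No gene for the helicase helpers or the scaffold was called. Eif4b had 90.6, 102.0 and 99.1 in sham, 97.2, 108.2 and 84.3 in control oligo, and 116.8, 116.4 and 98.9 in knockdown, and was not called (log2 changes −0.02 and 0.18, limma adjusted p = 0.920 and 0.207). Without knockdown 4 the latter change was 0.26 and passed (0.0350), and on unscaled TPM the changes were 0.64 and 0.90 and passed (0.0108 and 0.00117). Eif4h was at 88.7 in control oligo 1 and between 161.1 and 208.8 in the other 8 libraries. None of the 3 eIF4G genes, which encode the scaffold that joins cap, helicase and eIF3, was called. Eif4g3 had 52.4, 49.7 and 47.7 in sham, 56.2, 71.7 and 57.6 in control oligo, and 52.5, 43.7 and 59.1 in knockdown, with log2 changes of 0.30 (limma adjusted p = 0.0698) and 0.04 (0.802). On unscaled TPM its changes were 0.95 and 0.75 and passed (0.00206 and 0.00350), as did those of Eif4g1 (0.48 and 0.51) and, in knockdown, Eif4g2 and Eif4h (0.69 and 0.67).

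The cap-binding proteins themselves moved in different directions. Eif4e, the canonical cap binder, stood at 46 ± 5.2 (SD, n = 3) in sham, against 44 ± 3.4 in control oligo and 49 ± 7.5 in knockdown, and was not called. Eif4e2, a relative that acts mainly as a repressor, had 28.9, 29.0 and 30.6 in sham, 32.8, 37.2 and 38.8 in control oligo, and 43.6, 38.7 and 40.04 in knockdown. Its log2 changes were 0.28 and 0.45 (limma adjusted p = 0.0488 and 0.00729), the first of which was lost without sham 1, 2 or 3 or control oligo 2 or 3 (0.0825 to 0.137). Eif4e3, a further relative, had 12.2, 10.98 and 12.1 in sham, 6.62, 7.59 and 7.74 in control oligo, and 9.14, 9.10 and 9.49 in knockdown. All MCAO libraries lay below sham, with a called change of −0.62 ± 0.12 in control oligo (0.00438) and one of −0.32 ± 0.11 in knockdown that missed the threshold (0.0525). The knockdown change passed without knockdown 4 (−0.34, 0.0359), without the filter (−0.32, 0.0443), with protein-coding transcripts only (−0.38, 0.0387) and with TPM over nuclear protein-coding genes (−0.50, 0.0169). On unscaled TPM the changes were −0.02 and 0.34, and neither passed.

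The eIF4E-binding proteins compete with eIF4G for eIF4E when not phosphorylated by mTOR, and of their genes Eif4ebp1 and Eif4ebp2 rose. Eif4ebp1 was low in sham, at 1.45, 1.74 and 1.68, and had 9.47, 7.23 and 4.69 in control oligo and 7.45, 11.2 and 8.56 in knockdown. The lowest MCAO library was above every sham library, with log2 changes of 1.59 ± 0.23 and 1.92 ± 0.18 (limma adjusted p = 0.000986 and 0.000195) that the pseudocount of 1 makes smaller for so low a gene. Its lowest coverage in any library was 2.58 reads per base. Eif4ebp2, the main form in brain, had 9.48, 8.59 and 7.89 in sham, 17.5, 19.6 and 16.4 in control oligo, and 20.6, 20.1 and 19.1 in knockdown, and rose by 0.96 ± 0.13 and 1.12 ± 0.12 (0.000617 and 0.000314). Eif4ebp3 stayed below 1 throughout, at 0.192, 0.197 and 0.117 in sham, 0.314, 0.476 and 0.736 in control oligo, and 0.277, 0.127 and 0.300 in knockdown, and was not tested. Eif4enif1, which encodes the eIF4E transporter, was not called (log2 changes −0.19 and −0.13), and on unscaled TPM was called higher (0.45 and 0.56, limma adjusted p = 0.0347 and 0.00786).

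The group of eIF5, eIF5A, eIF5B and eIF6 genes included the clearest fall. Eif5a2 (chr3:28781276-28798846), the second gene for eIF5A, had 40.8, 41.1 and 41.2 in sham, 15.4, 15.0 and 13.0 in control oligo, and 16.5, 15.3 and 11.9 in knockdown. Sham libraries were within 0.5 of each other and far above all others, and the log2 change was −1.45 in each comparison (SE 0.10 and 0.13, limma adjusted p = 4.47e-05 and 0.000195). On unscaled TPM the changes of Eif5a2 were smaller, −0.80 and −0.75, and still passed (limma adjusted p = 0.00286 and 0.00575). Eif5a, the widely expressed form, went up, from 137 ± 10 (SD, n = 3) in sham to 264 ± 19 in control oligo and 296 ± 57 in knockdown (log2 changes 0.95 and 1.10). Eif5b, the GTPase of subunit joining, had 13.6, 13.5 and 13.6 in sham, 39.9, 36.2 and 27.4 in control oligo, and 34.7, 38.5 and 33.0 in knockdown, and rose by 1.27 ± 0.15 and 1.32 ± 0.10 (0.00037 and 9.83e-05). Eif6, which keeps the large subunit apart until it is needed, rose by 0.88 and 1.03.

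Eif5, the GTPase-activating protein of eIF2, varied within groups. It had 62.7, 110.4 and 76.6 in sham, 109.0, 137.0 and 44.2 in control oligo, and 140.3, 140.2 and 122.4 in knockdown. Control oligo spanned the whole sham range and was not called (log2 change 0.11, limma adjusted p = 0.841). The knockdown change of 0.72 passed (0.0234), and no longer did without sham 1 or 3 or knockdown 2 or 3 (0.0638 to 0.0764).

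**Figure D2:**
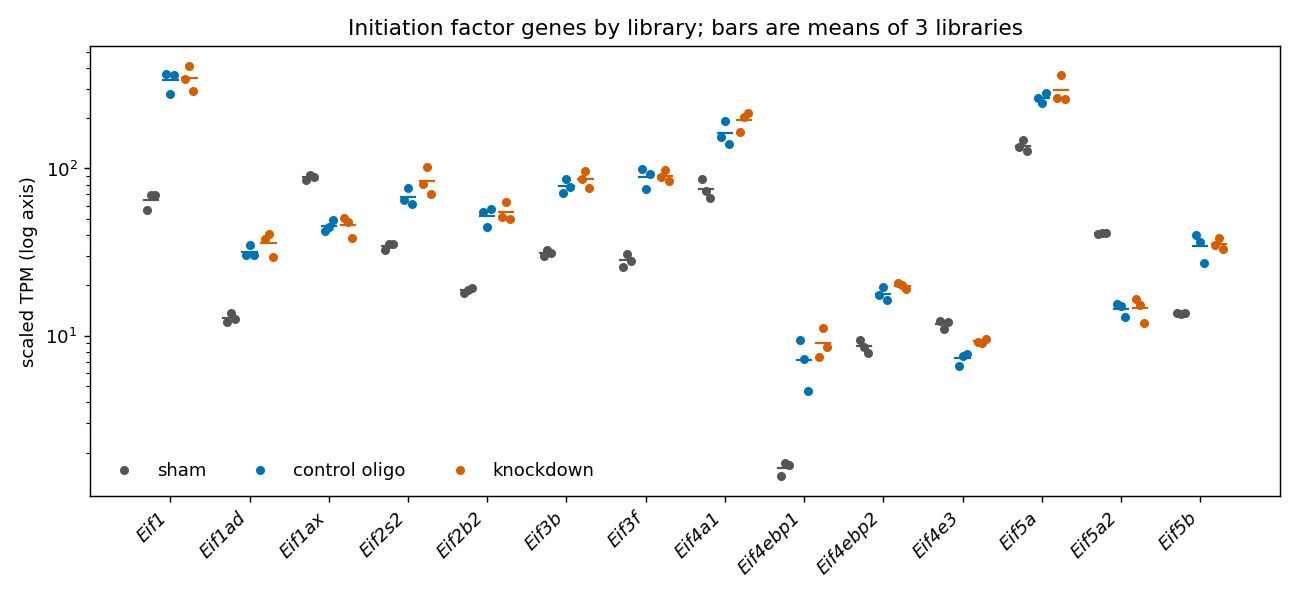
Scaled TPM (log axis) of 14 genes in each library, with points for libraries and bars for the means of 3. In Eif1, Eif3f and Eif4ebp1 the MCAO points lie above all sham points, and in Eif5a2, Eif1ax and Eif4e3 below them.

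Ratios of 2 genes within a library do not depend on the library's scaling, and 12 pairs of related genes, chosen after their values had been seen, were compared in this way (36 comparisons). The ratio of Eif5a to Eif5a2 was 3.29, 3.59 and 3.10 in sham, 17.0, 16.5 and 21.8 in control oligo, and 16.0, 23.7 and 21.9 in knockdown. Eif1 to Eif1b was 0.570, 0.780 and 0.713 in sham, 2.56, 2.35 and 2.99 in control oligo, and 2.53, 3.02 and 2.67 in knockdown, so the more abundant gene of the pair differed between sham and the rest. Eif1ax to Eif1a was 3.20, 3.06 and 3.33 in sham, 1.09, 1.43 and 1.63 in control oligo, and 1.36, 1.38 and 0.843 in knockdown. Within complexes, Eif2s2 to Eif2s1 was 1.29 to 1.37 in sham against 2.69 to 3.13 and 3.02 to 3.14, Eif2b2 to Eif2b5 was 0.446 to 0.478 against 1.16 to 1.60 and 1.21 to 1.54, and Eif3f to Eif3e was 0.326 to 0.349 against 0.802 to 1.06 and 0.749 to 0.914. Eif4ebp1 to Eif4e was 0.0339 to 0.0366 in sham against 0.111 to 0.225 in control oligo and 0.146 to 0.208 in knockdown. Eif4a1 to Eif4a2 was 0.168 to 0.395, 0.680 to 0.834 and 0.714 to 1.10.

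In control oligo against sham all 12 ratios stood apart, and in knockdown against sham 9 did. The exceptions were Eif4e2 and Eif4e3 to Eif4e and Eif4g3 to Eif4g1. How often gene pairs in general stand apart was not computed. Among single genes, 30.8% were higher and 33.2% lower in every control oligo library than in any sham library. For knockdown against sham these shares were 29.8% and 32.3%. With 3 libraries against 3 the exact two-sided permutation test cannot go below p = 0.10, which is 0.171 after adjustment over the 36 comparisons, so none could pass. Every ratio overlapped between knockdown and control oligo. The data sets still differ in RNA selection and read length, which may weigh on 2 genes unequally, and this was not tested.

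**Figure D3:**
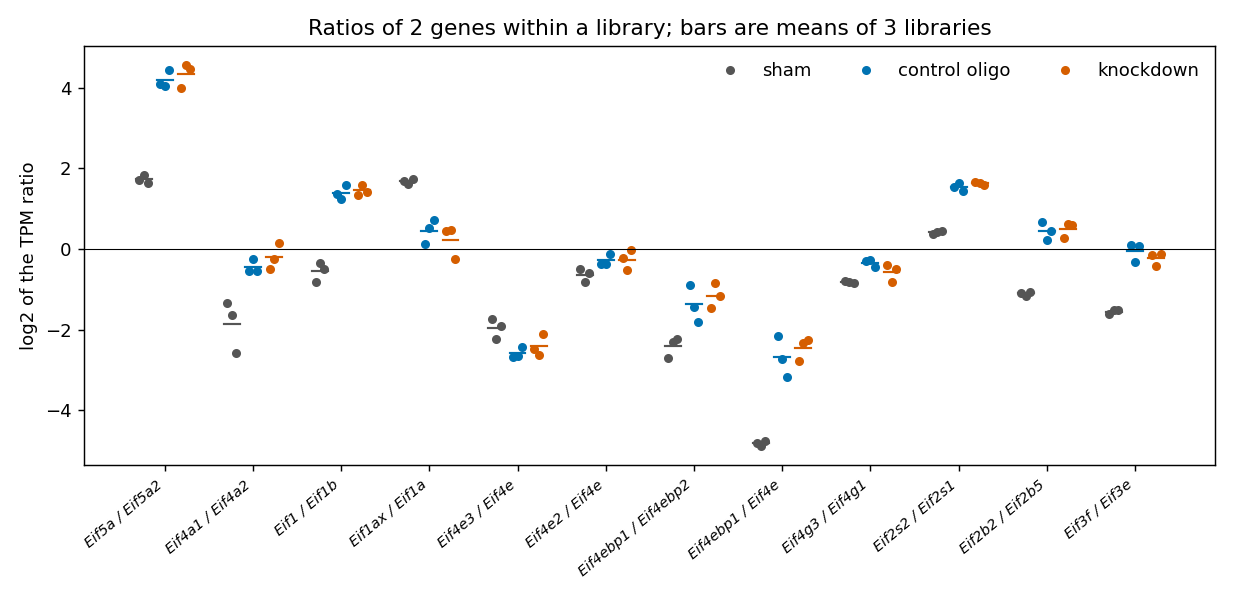
Log2 of the ratio of 2 genes' TPM within each library for 12 pairs, with points for libraries and bars for the means of 3. Sham points lie apart from control oligo points in each pair, while knockdown and control oligo points overlap.

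Which transcript of a gene the reads were assigned to varied between libraries. Of the 42 tested members with more than 1 transcript, 27 had the same leading transcript in all 9 libraries, and in 15 the leading transcript differed within at least 1 group. In Eif5a, a transcript of 1286 nt held 68.3 to 76.9% in the control oligo libraries and under 0.2% in the rest, and a different transcript led in each of knockdown 2, 3 and 4. Eif5 was led by a transcript of 4050 nt in sham 1 and 3 and control oligo 1 and 3 and by one of 3547 nt in the other 5 libraries. Eif1 had a transcript of 1322 nt at 82.1 to 88.8% in sham, 60.3 to 64.0% in control oligo, 58.6 and 60.1% in knockdown 2 and 3, and 88.6% in knockdown 4. Levels summed over a gene's transcripts depend less on such shifts. With aligned bases per gene in place of TPM, 27 members were called higher and 3 lower in control oligo (26.5% and 29.7% of all genes), and 29 and 2 in knockdown (23.1% and 27.8%).

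**Figure D4:**
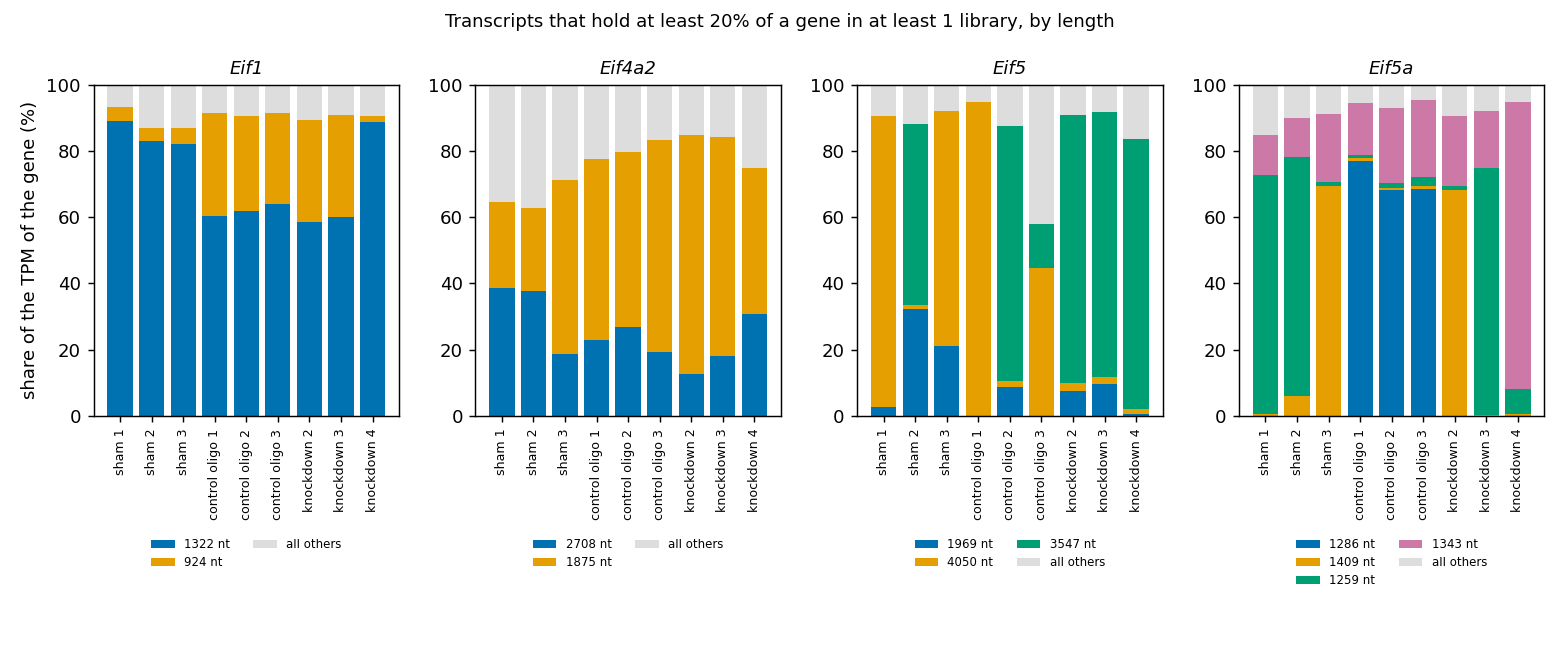
Share (%) of a gene's TPM held by each transcript that reaches 20% in at least 1 library, for 4 genes in 9 libraries, with colours for transcript lengths and grey for all others. Eif5a and Eif5 change leading transcript within groups, and the 924-nt transcript of Eif1 is at 27.4 to 31.1% in control oligo but 1.83% in knockdown 4.

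Knockdown of eRNA_06347 changed no member at the test's threshold. In knockdown against control oligo, 0 of 52 members were called by limma, with 1 at an unadjusted p under 0.05, and all adjusted p-values were 1.0. Among all genes 0.0117% were called higher and 0.00585% lower, which is 3 genes and no member. The member with the smallest p was Eif3l, at 55.1 to 63.0 in control oligo and 65.3 to 87.5 in knockdown (log2 change 0.35, 95% interval 0.01 to 0.68). Eif4e3 was the other member whose groups did not overlap, at 6.62 to 7.74 and 9.10 to 9.49 (0.30, −0.06 to 0.66). Higher in every knockdown library were thus 2 members and lower 0, where 3.49% and 2.89% of all genes were.

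The other 8 members with the smallest p were Eif2s2, Eif2b3, Eif4a1, Eif4g3, Eif5, Eif4b, Eif2a and Eif4e2, none of which passed. Eif2b3 and Eif4g3 had negative changes (−0.24 and −0.25) and the others positive ones (0.17 to 0.61). For the genes that moved most against sham the intervals were −0.40 to 0.48 for Eif1, −0.41 to 0.41 for Eif5a2, −0.30 to 0.36 for Eif3f and −0.33 to 1.00 for Eif4ebp1. These intervals are not adjusted for the number of genes tested.

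Small positive differences were common among the members. The log2 change was above 0 in 44 of 52 members and in 52.4% of all genes, and its median was 0.14 in the members and 0.01 in all genes. This pattern leaned on knockdown 3, in which the members summed to 4696 scaled TPM against 4228 and 3787 in the other knockdown libraries. Without it the count was 32 of 52 and the median 0.06, and without knockdown 4 they were 45 and 0.19.

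**Figure D5:**
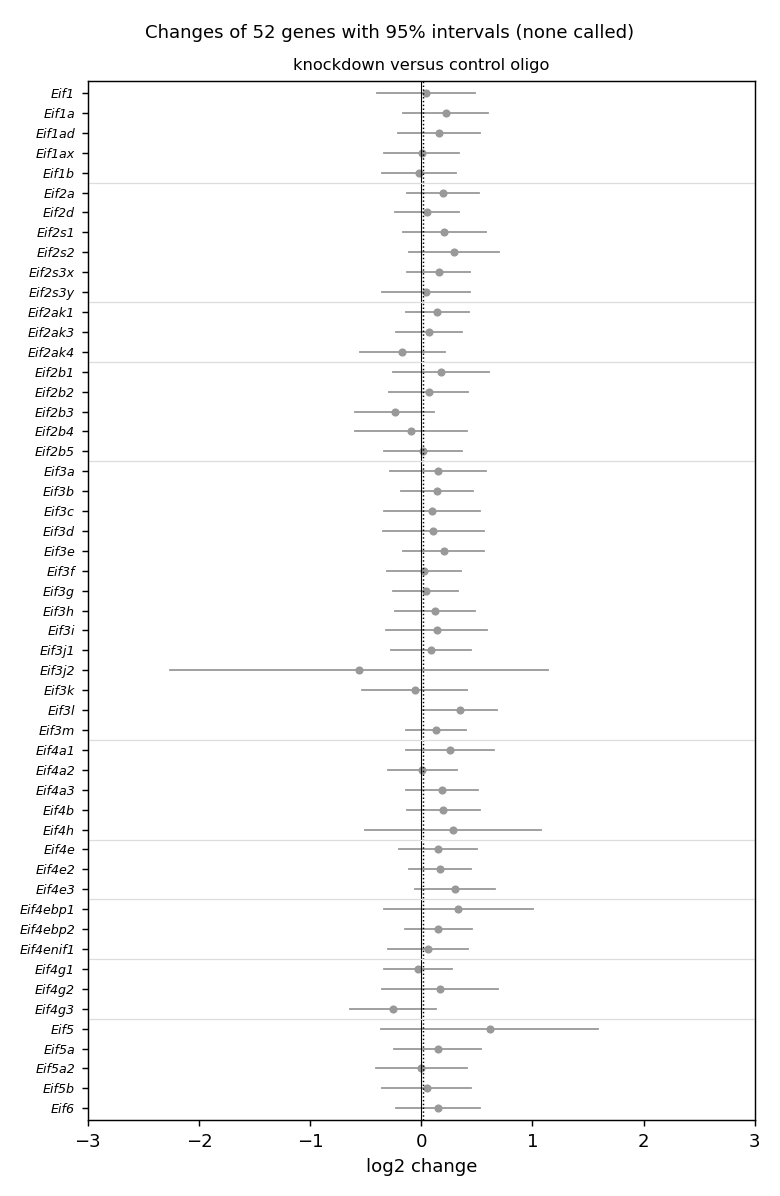
Log2 change of knockdown against control oligo (horizontal axis) for the 52 tested genes with 95% intervals, in the order of the factors, and the median of all genes as a dotted line. All intervals but that of Eif3l reach 0, and Eif3j2, Eif5, Eif4h and Eif4ebp1 have the widest.

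The pathway around the factors was described from lists of its other genes, whose calls are read against 26.1% of all genes higher and 29.2% lower in control oligo and 22.7% and 27.1% in knockdown. No list was tested as a set. Of 12 targets of the integrated stress response, the programme that ATF4 runs when eIF2 is phosphorylated, 10 rose (83.3%) and 1 fell (Vldlr, 8.33%) in each comparison with sham, with medians of 2.03 and 2.21. Atf3 stood at 0.327 to 0.622 in sham, 33.8 to 88.8 in control oligo and 63.2 to 98.98 in knockdown, Nupr1 at 5.47 to 6.92, 40.1 to 53.6 and 29.5 to 76.0, and Ddit4 at 11.8 to 15.8, 51.6 to 80.7 and 63.6 to 75.5. Asns was not called.

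Of 17 tested genes for kinases, phosphatase subunits and regulators acting on initiation factors, 7 rose (41.2%) and 6 fell (35.3%) in control oligo, and 8 rose (47.1%) and 6 fell (35.3%) in knockdown. The shares that fell were near those of all genes (29.2% and 27.1%). Ppp1r15a, the subunit that directs phosphatase to eIF2 alpha, rose from 5.71 to 7.64 in sham to 32.2 to 50.9 in control oligo and 28.3 to 56.7 in knockdown. Impact, an inhibitor of GCN2, fell from 160 to 173 in sham to 73.1 to 83.4 and 64.3 to 97.4. Mtor, which phosphorylates the eIF4E-binding proteins, fell from 34.4 to 37.2 in sham to 17.7 to 19.3 and 14.9 to 17.5.

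Of 18 partners of the cap complex, 5 rose (27.8%) and 8 fell (44.4%) in control oligo, and 4 rose (22.2%) and 6 fell (33.3%) in knockdown, with medians of −0.21 and −0.07. The shares that rose were near the 26.1% and 22.7% of all genes. Pabpc1, the poly(A)-binding protein that eIF4G holds, rose from 35.3 to 41.9 in sham to 107 to 111 and 117 to 162. Gigyf2, the partner of Eif4e2 in repression, fell by 1.53 and 1.54, and Fmr1 fell by 1.06 in each comparison. Of 12 elongation and termination factors, 7 rose (58.3%) and 1 fell (8.33%) in control oligo, and 7 rose and 0 fell in knockdown (medians 0.50 and 0.53), where 26.1% and 29.2%, and 22.7% and 27.1%, of all genes did. Examples are Eef1a2, Eef2k and Etf1, with log2 changes of 0.78, 0.91 and 0.60 in control oligo and 0.81, 0.67 and 0.86 in knockdown.

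Of 9 gene IDs for reinitiation, ribosome recycling and the hypusine enzymes that activate eIF5A, 4 rose (44.4%) and 2 fell (22.2%) in control oligo, against 26.1% and 29.2% of all genes, and 5 rose (55.6%) and 1 fell (11.1%) in knockdown, against 22.7% and 27.1%. Dhps, the first hypusine enzyme, rose by 0.82 and 0.55 and Denr, a reinitiation factor, by 0.61 and 0.80. Dohh, the second hypusine enzyme, appears under 2 gene IDs, of which the abundant one was not called and the other rose from at most 0.244 in sham to 2.15 to 3.73 and 1.60 to 2.22. Mitochondrial translation factors showed 1 rise (Tufm, log2 changes 0.64 and 0.64) and 2 falls (Gfm2 and Mtif2) among 8 in each comparison, where 26.1% and 22.7% of all genes rose and 29.2% and 27.1% fell. In knockdown against control oligo no gene of the 6 lists was called.

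Markers of other cells moved alongside these changes. Summed over 6 neutrophil markers, scaled TPM was 2.29 to 6.84 in sham, 22.8 to 323 in control oligo and 57.5 to 1214 in knockdown, and 5 of the 5 tested markers rose in control oligo and 3 in knockdown. Endothelial markers summed to 99.01 to 108, 151 to 235 and 174 to 372, and microglial ones to 174 to 184, 186 to 201 and 185 to 393. Knockdown 4 was the highest library for all 3 sums. Excitatory neuron markers of cortex summed to 478 to 523, 409 to 529 and 354 to 445. Striatal neuron markers summed to 92.1 to 101, 161 to 193 and 101 to 191, and choroid plexus markers to 3.35 to 3.61, 3.88 to 6.61 and 4.54 to 53.3. The neutrophil genes Ly6g and Retnlg were at 0 in all sham libraries, and no marker of the 9 cell types examined was at 0 in every library. The cortical label thus had its defining markers in all libraries, and the part of cell composition in the changes above was not tested. Without knockdown 4, 32 members rose and 4 fell against sham (Eif1ax, Eif4e3, Eif4g1 and Eif5a2). Calls over all 17080 genes tested also grew, to 4789 higher and 5232 lower without that library, from 3883 and 4629 with it.

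Overlapping genes limit some levels. Among the members, 10 overlap an expressed gene of the opposite strand, for example Eif2a with Serp1, Eif2b4 with Snx17, and Eif5b with Rev1. The MCAO libraries were made with a stranded kit, but the strand setting of the alignment is not given in the sources used here, nor is the protocol of the sham libraries, so reads in such overlaps may have been assigned to either gene.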

How the data were processed

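The authors deposited 1 transcript table per library, with coverage, FPKM and TPM values for 131100 transcripts, made by StringTie 1.3.4d with a merged annotation and no strand option, per the file headers. HISAT2 2.0 and the build GRCm38 (mm10) are named in the submitters' processing notes. Coverage, FPKM and TPM stand together in a single attribute field, so the deposited column has no unit of its own. No read counts per gene were used, and no count test was run. TPM was summed per gene ID and divided by median-ratio factors (0.6651 to 1.274, from 16344 genes). limma 3.58.1 (R 4.3.3, trend) was run on log2(scaled TPM + 1) for each comparison on its own 6 libraries. All 17080 genes with TPM of at least 1 in at least 3 of 9 libraries entered, with Benjamini-Hochberg adjustment and calls at 0.05. The script was tested on simulated data. Ratios were compared with SciPy 1.17.1.

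The members and gene lists were chosen with earlier results of these data known. Values in every library are given for up to 10 called members with the largest change in each direction against sham. They are also given for the 10 with the smallest p in knockdown against control oligo and the member with the smallest p in each factor group. The eIF4E-binding proteins and the eIF2 alpha kinases among the members were added to these. Up to 3 genes with the smallest p were to be named per pathway list, and others named there were chosen after their values were seen.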

Additional observations from a re-analysis of the deposited data

How the results depend on the processing

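Reads behind a gene are not known from TPM, so precision rests on 3 libraries per group. Directions against sham depend on the scaling: on unscaled TPM the change of Eif2a in control oligo became 0.63, that of Eif4b 0.64, and that of Eif2ak4 0.53 in control oligo and 0.41 in knockdown, each of which was below 0 in the analysis reported. Unscaled TPM called 43 members higher and 1 lower in control oligo and 47 and 1 in knockdown, and over all genes 8990 higher and 2178 lower, and 9007 and 2143. TPM over nuclear protein-coding genes called 4 members lower in knockdown. Leaving out 1 library at a time, members called higher were 20 to 25 in control oligo and 23 to 32 in knockdown, members called lower 3 and 2 to 4, and knockdown against control oligo gave 0 members throughout. Over all genes, the ranges were 3446 to 4480 higher and 4172 to 5041 lower in control oligo, 2726 to 4789 and 3778 to 5232 in knockdown, and 0 to 2 higher and 1 lower in knockdown against control oligo. That last comparison called 2 genes higher and 1 lower in the analysis reported. It called 1 higher on unscaled TPM, with a pseudocount of 0.1, without the filter and with protein-coding transcripts only, 0 higher and 0 lower with TPM over nuclear protein-coding genes, and 2 lower with all 9 libraries in one fit. Aligned bases per gene and protein-coding transcripts only were alternatives chosen after seeing the data. Among the 12 ratios, protein-coding transcripts only moved the log2 difference of Eif4g3 to Eif4g1 from 0.25 to −0.21 in knockdown against sham, from 0.48 to 0.28 in control oligo against sham and from −0.23 to −0.50 in knockdown against control oligo, and aligned bases moved that of Eif2b2 to Eif2b5 from 1.55 to 1.15 and from 1.60 to 1.16 against sham.

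Replicate numbers were not taken to pair libraries, since same-numbered libraries deviated together with correlations from −0.08 to 0.22. With a replicate block, 21 members were called higher and 3 lower in control oligo, and 27 and 2 in knockdown. Over all 17080 genes tested, the block gave 4266 higher and 4759 lower in control oligo, and 3503 and 4130 in knockdown. Between knockdown and control oligo it gave 0 members, and 0 of all genes in either direction.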
